A study of Mus musculus with 29 samples.

Results

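The actin cytoskeleton and contractile genes described here are 10 genes of the 28229 in the deposited count table: Actb, Actn1, Acta2, Tagln, Tpm1, Tpm2, Tpm4, Myl9, Flna and Vcl. They were taken by their gene symbols, in all 29 libraries. Each symbol was found in 1 row. The libraries are mRNA sequencing of NMM, a mouse melanoma cell line with a mutant NRAS, and all groups share this genotype. No label states how many clones the line derives from. The cells first received TGFβ (transforming growth factor beta, 10 ng/ml), IFNγ (interferon gamma, 100 ng/ml) or medium for 2, 6, 12 or 24 h, were washed, and then received IFNγ, TGFβ, a mix of both or medium for 24 h.

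A sequence is named here by its first and its second stimulus. There were 7 sequences with 4 libraries each: TGFβ then IFNγ, TGFβ then medium, IFNγ then TGFβ, IFNγ then medium, medium then TGFβ, medium then IFNγ and, as the control, medium then medium. Within a sequence each duration gave 1 library, and a single further library got the mix after 24 h of medium. The durations serve as replicates. Separate cultures are not stated in the labels, so p-values measure the spread between these libraries, which may be technical in part.

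Actin filaments are built from actin monomers, stabilised by tropomyosins that lie along the filament, bundled by alpha-actinin, crosslinked by filamin and tied to adhesion sites through vinculin. Smooth muscle actin, transgelin and the regulatory myosin light chain are the contractile genes typically associated with smooth muscle and myofibroblasts. TGFβ is known to raise many of these genes in fibroblasts and epithelial cells, in part through serum response factor (SRF) and its actin-sensing cofactors, which bind CArG boxes in promoters. IFNγ is known mainly for antiviral and antigen presentation genes.

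Promoter windows were taken from RefSeq (GRCm38.p6), from 250 bases before to 50 bases after the start given there. They were matched for 8 of the 10 genes, and no window was matched for Actb and Tagln. Each was searched on both strands for the CArG box, for CATTCC (the core letters bound by TEAD factors) and for CAGAC (letters bound by SMAD factors). The CArG box was searched as CC, 6 letters that are each A or T, and GG. In that strict form it was found in 2 of the 8 windows, those of Vcl and Myl9, and in 1.63% of all 32851 windows. With 1 of the 6 inner letters free, a form added after the strict matches were seen, it was found 2 times in Acta2, 2 times in Myl9 and 1 time in Vcl, and in 9.98% of all windows. CATTCC was found in 4 of the 8, those of Vcl, Flna, Tpm1 and Acta2, and in 14.7% of all windows. CAGAC was found in 1 of the 8, that of Acta2, and in 49.6% of all windows. No match to the 3 motifs was in the windows of Actn1, Tpm2 and Tpm4. The 3 motifs did not overlap one another in these windows, and a match describes letters only.

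The windows below are printed because they pair 2 measured genes, Vcl and Flna, with 2 contractile genes that were almost silent, Myl9 and Acta2. Capitals mark the strict CArG box and CATTCC or its reverse complement GGAATG.
Vcl: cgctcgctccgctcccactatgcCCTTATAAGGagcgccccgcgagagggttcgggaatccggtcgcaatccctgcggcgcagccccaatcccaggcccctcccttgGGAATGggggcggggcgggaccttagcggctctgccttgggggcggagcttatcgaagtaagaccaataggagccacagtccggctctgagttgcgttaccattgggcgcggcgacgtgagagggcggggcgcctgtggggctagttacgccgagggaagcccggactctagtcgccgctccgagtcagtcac
Flna: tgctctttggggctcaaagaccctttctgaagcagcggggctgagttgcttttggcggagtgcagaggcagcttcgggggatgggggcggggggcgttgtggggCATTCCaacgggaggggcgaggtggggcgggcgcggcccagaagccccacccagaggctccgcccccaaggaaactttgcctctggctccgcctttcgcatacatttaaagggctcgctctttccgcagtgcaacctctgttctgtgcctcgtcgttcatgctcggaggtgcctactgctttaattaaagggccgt
Myl9: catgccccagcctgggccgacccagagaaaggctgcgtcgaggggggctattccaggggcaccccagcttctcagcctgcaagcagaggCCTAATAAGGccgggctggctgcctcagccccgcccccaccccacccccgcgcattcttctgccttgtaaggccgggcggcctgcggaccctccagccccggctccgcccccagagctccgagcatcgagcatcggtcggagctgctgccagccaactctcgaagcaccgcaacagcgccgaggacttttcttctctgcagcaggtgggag
Acta2: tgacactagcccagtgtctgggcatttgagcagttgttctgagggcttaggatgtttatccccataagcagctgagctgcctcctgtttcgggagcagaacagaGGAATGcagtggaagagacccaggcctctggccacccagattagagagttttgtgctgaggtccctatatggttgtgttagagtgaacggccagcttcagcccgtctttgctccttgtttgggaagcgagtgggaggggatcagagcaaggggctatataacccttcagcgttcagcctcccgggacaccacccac

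The Vcl window lies on chr14:20929148-20929447 (plus strand) and the Myl9 window on chr2:156775214-156775513 (plus strand). The Flna window lies on chrX:74246485-74246784 (minus strand) and the Acta2 window on chr19:34255324-34255623 (minus strand). The strict CArG box started 227 bases before the start of Vcl and 161 bases before that of Myl9. The matches of 6 letters began 143 bases before the start of Vcl and 146 bases before the starts of both Flna and Acta2. These starts are those of RefSeq and can differ from the outer start of the counted gene. On the minus strand the counted Flna begins at 74249820, so its window lies inside the gene. The Tpm4 window (72135038 to 72135337) lies inside its gene too, which begins at 72130174. The Acta2 window spans the outer start of its gene at 34255590.

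Library totals ran from 17179530 to 23668015 counts, and mitochondrial genes took 0.596% to 1.31% of them. Libraries of 1 group always differed beyond sampling noise (chi-square divided by its degrees of freedom at least 3.73). The medium then medium library of 6 h stood apart from the other 3 of its group. Over genes, its log2 differences from their mean had an SD of 0.596, against 0.320, 0.360 and 0.361 for the libraries of 2, 12 and 24 h. Of 8 melanocyte markers 4 were in the table. Mitf, the master regulator of melanocytes, was at 8.4 to 20.2 CPM (counts scaled to library size with TMM factors) and Gpnmb at 26.4 to 276 CPM, while Sox10 reached at most 0.135 CPM and Pmel 0.444 CPM. The pigment cell genes Tyr, Tyrp1, Dct and Mlana had no row in the table used here. Summed leukocyte markers, 3 of 6 in the table, were at most 0.231 CPM.

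The smooth muscle side of the label was not borne out by the counts. Acta2, smooth muscle actin, had 36 counts over all 29 libraries, 0 to 8 per library. Tagln, transgelin, an actin bundler of smooth muscle, had 31 counts, 0 to 5 per library. Myl9, the regulatory light chain of smooth muscle and nonmuscle myosin, had 1 count, in the TGFβ then medium library of 2 h. All 3 fell under the filter on low counts and were not tested. A count of 0 allowed a level of up to 0.127 to 0.175 CPM, depending on the library, for counting error only.

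By sequence, Acta2 had 1, 1, 0 and 6 counts in TGFβ then IFNγ (2, 6, 12 and 24 h) and 8, 3, 3 and 1 counts in medium then IFNγ. It had 0, 2, 3 and 2 counts in medium then TGFβ, at most 1 count in any library of TGFβ then medium and IFNγ then TGFβ, 0 in all 4 libraries of IFNγ then medium, and 0, 1, 0 and 1 counts in medium then medium. The highest single counts were in libraries that ended in IFNγ, and no test was made at this depth. As counts, the 4 libraries of IFNγ then medium lay below the 4 of medium then IFNγ, and the ranges overlapped in the other 8 pairwise comparisons. The limit on a count of 0, 0.127 to 0.175 CPM, is above the 0.0556 CPM of the medium then IFNγ library of 24 h. At this depth that library is therefore not separated from those of IFNγ then medium. Summed over 4 libraries, Acta2 had 15 counts in medium then IFNγ and 0 in IFNγ then medium, a difference that was not tested. Tagln had 5, 2, 0 and 1 counts in medium then IFNγ, and 2, 1, 2 and 0 counts in medium then medium. Tagln lies under Pcsk7 on the other strand, a gene with 12031 counts, so its few reads could come from that gene if strand was not used in counting.

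The smooth muscle and pericyte markers, 9 of 10 in the table, were mixed, and 3 of them passed the filter on low counts. The summed level of the list was 3.50 to 12.1 CPM and came mainly from Pdgfrb (2.35 to 9.42 CPM). Rgs5 was at 0.334 to 2.31 CPM, while Cspg4 reached at most 0.527 CPM and Notch3 0.287 CPM. The smooth muscle genes Myh11, Cnn1, Des, Lmod1 and Actg2 each had 0 to 5 counts per library.

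Compared per length of exon, the remaining genes covered a wide range of levels. Tpm4 averaged 613 CPM per kb over the 29 libraries, Actb 563, Tpm1 225, Actn1 125, Flna 77.2, Vcl 14.7 and Tpm2 1.35 CPM per kb. Acta2 averaged 0.0292, Tagln 0.0269 and Myl9 0.00149 CPM per kb. By this measure Tpm4, a short nonmuscle tropomyosin, stood at about the level of Actb. Tpm2, a tropomyosin of muscle and of stress fibres, was the least abundant of the tested genes. The length was the union of all annotated exons, not that of 1 transcript: 2203 bases for Tpm4, 2679 for Actb and 6485 for Tpm1. Undivided, their counts over the 29 libraries were 758723, 847064 and 820302, so the order of Tpm4 and Tpm1 depends on that length. Between its lowest and its highest library, Tpm2 spanned 6.53-fold in CPM and Actn1 1.33-fold.

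**Figure D1:**
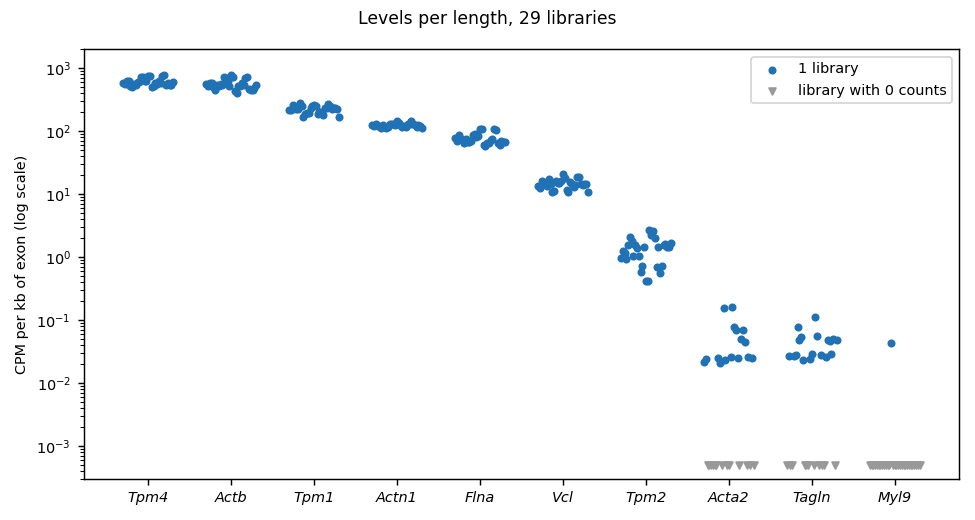
Level of each of the 10 genes per kb of exon (vertical axis, CPM per kb, log scale), 1 point per library, with grey triangles for libraries at 0 counts placed at the foot of the axis. Tpm4, Actb and Tpm1 lead, and Acta2, Tagln and Myl9 lie below the level of Tpm2 in all 29 libraries.

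The 7 tested genes were compared between sequences with edgeR's quasi-likelihood test, with p-values adjusted by Benjamini and Hochberg over 14935 genes and calls at an adjusted p below 0.05. Medium then medium enters 4 of the 9 pairwise comparisons, so these share control libraries. In bulk RNA, fewer cells that express a gene and less of its RNA per cell cannot be told apart.

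The first question was what TGFβ alone changed. Actin, filamin A and the short tropomyosin Tpm4 were higher when TGFβ was given second, after medium, and Tpm2 was lower. Of the 7 tested genes 4 rose and 1 fell in medium then TGFβ against medium then medium, where 23.3% of all tested genes were called (11.7% higher, 11.6% lower). The median log2 fold change of the 7 was 0.15, against -0.00 over all tested genes. The 3 untested genes are not in that median.

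Actb, beta-actin (chromosome 5, 142903115 to 142906754, minus strand), was at 1554, 1446, 1868 and 1932 CPM in medium then TGFβ (2, 6, 12 and 24 h), against 1273, 1197, 1207 and 1326 CPM in medium then medium. The ranges did not overlap. On the log2 scale the fold change was 0.43 ± 0.06 (SE; edgeR adjusted p = 3.09e-05), a 1.35-fold difference.

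Flna, filamin A, the crosslinker of orthogonal actin networks (chromosome X, 74223461 to 74249820, minus strand), was at 682, 704, 1025 and 989 CPM in medium then TGFβ, against 604, 567, 668 and 637 CPM in medium then medium. Every TGFβ library was above every medium library, the 12 and 24 h libraries by the most. The log2 fold change was 0.44 ± 0.08 (edgeR adjusted p = 0.000207).

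Tpm4 (chromosome 8, 72130174 to 72153142, plus strand) was at 1375, 1309, 1663 and 1696 CPM in medium then TGFβ, against 1193, 1309, 1211 and 1184 CPM in medium then medium. The 6 h libraries of the 2 groups were level, and the other 3 pairs were apart. The log2 fold change was 0.29 ± 0.06 (edgeR adjusted p = 0.000623).

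Actn1, alpha-actinin 1, which bundles filaments in stress fibres (chromosome 12, 80167547 to 80260371, minus strand), was at 717, 731, 813 and 730 CPM in medium then TGFβ, against 695, 636, 704 and 659 CPM in medium then medium. Its log2 fold change was 0.15 ± 0.04 (edgeR adjusted p = 0.0142), and without the 12 h library of medium then TGFβ the adjusted p was 0.0553.

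Tpm2 (chromosome 4, 43514711 to 43523765, minus strand) went the other way. It was at 2.01, 4.24, 1.64 and 2.09 CPM in medium then TGFβ, against 4.57, 4.74, 4.14 and 4.26 CPM in medium then medium. The 6 h TGFβ library overlapped the medium libraries and the other 3 lay below all of them. Its log2 fold change was -0.87 ± 0.25 (edgeR adjusted p = 0.0143). The call was lost without any 1 of 3 libraries, those of 2 or 12 h of medium then TGFβ or of 24 h of medium then medium (adjusted p = 0.0546 to 0.0643). Without the duration term, the calls of Tpm2 (adjusted p = 0.0985) and of Actn1 (adjusted p = 0.0967) were lost. In a fit of these 2 groups alone, the calls of Tpm2 (0.0648), Actn1 (0.152) and Tpm4 (0.112) were lost.

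Tpm1 and Vcl did not pass. Tpm1, a tropomyosin gene whose isoforms these counts do not separate (chromosome 9, 67022590 to 67049406, minus strand), averaged 1610 ± 114 CPM in medium then TGFβ and 1480 ± 34.9 CPM in medium then medium (SD, n = 4 each; edgeR adjusted p = 0.0993). Vcl, vinculin (chromosome 14, 20929398 to 21033676, plus strand), averaged 132 ± 24.3 CPM in medium then TGFβ and 118 ± 2.63 CPM in medium then medium (edgeR adjusted p = 0.196). Vcl overlaps Ap3m1 on the other strand, which had 27417 counts against 67564 for Vcl, so Vcl is uncertain if strand was not used in counting.

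Several sums of cell type markers differed between the same groups. The summed melanocyte markers, mainly Gpnmb, were at 61.1 to 96.2 CPM in medium then TGFβ and 37.6 to 84.2 CPM in TGFβ then medium, against 164 to 290 CPM in medium then medium. The 4 endothelial markers, almost all of their sum from Cdh5, were at 16.8 to 23.5 CPM in medium then TGFβ and 20.4 to 22.5 CPM in TGFβ then medium, against 6.99 to 12.3 CPM in medium then medium, and Pecam1, Kdr and Tek each stayed between 0 and 0.279 CPM. The smooth muscle and pericyte markers were at 4.54 to 7.05 CPM in TGFβ then medium, against 7.48 to 12.1 CPM in medium then medium. The fibroblast markers overlapped, at 471 to 603 CPM in medium then TGFβ and 353 to 680 CPM in TGFβ then medium, against 571 to 1936 CPM in medium then medium. The part of these lists in the result was not tested.

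**Figure D2:**
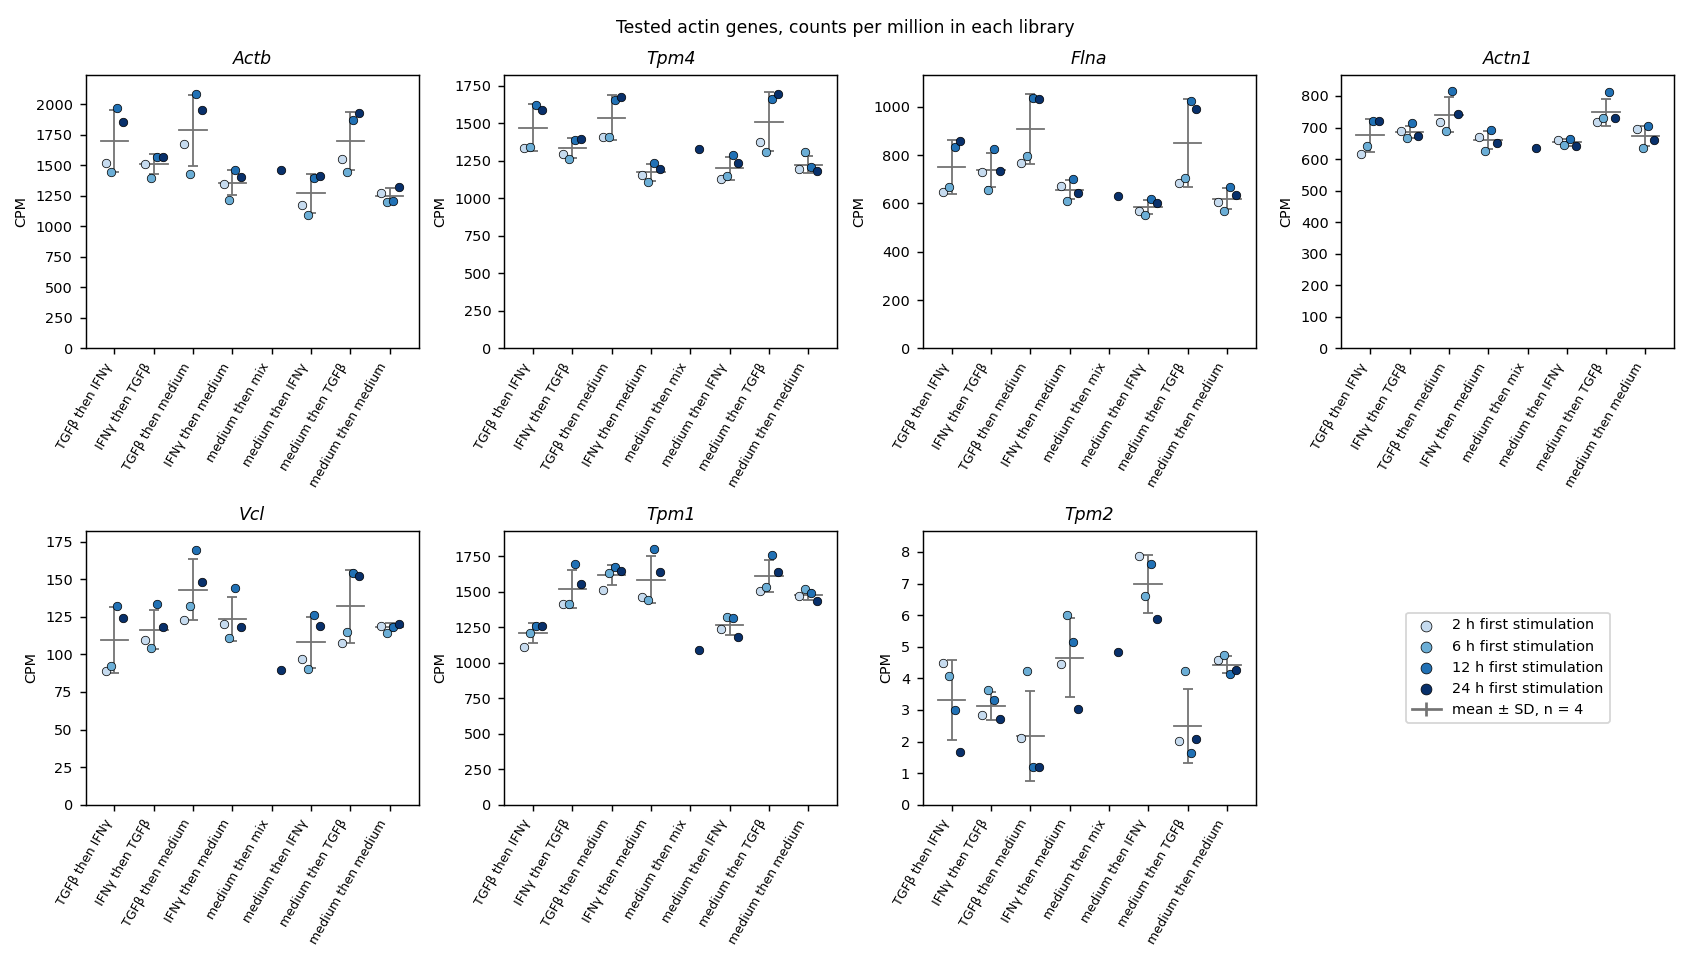
CPM of the 7 tested genes in each library (vertical axes from 0), by sequence of stimuli, with points shaded by the duration of the first stimulation and grey bars for the mean ± SD of 4 libraries (the mix has 1). Flna in medium then TGFβ is at 682 and 704 CPM in the 2 and 6 h libraries and at 1025 and 989 CPM in the 12 and 24 h libraries, while medium then medium stays between 567 and 668 CPM.

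The second question was what remained 24 h after TGFβ was withdrawn. Actin, filamin A, Tpm4, alpha-actinin 1 and vinculin were higher and Tpm2 was lower. In TGFβ then medium against medium then medium 5 of the 7 tested genes rose and 1 fell, where 29% of all tested genes were called (14.5% higher, 14.5% lower). The median of the 7 was 0.26 on the log2 scale, against -0.00 over all tested genes.

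Actb was at 1671, 1428, 2087 and 1955 CPM in TGFβ then medium (2, 6, 12 and 24 h), all above the 1197 to 1326 CPM of medium then medium. Its log2 fold change was 0.50 ± 0.06 (edgeR adjusted p = 4.42e-06). Flna was at 765, 797, 1037 and 1030 CPM, again without overlap, with a log2 fold change of 0.54 ± 0.08 (edgeR adjusted p = 1.58e-05).

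Tpm4 was at 1407, 1412, 1658 and 1675 CPM in TGFβ then medium, above every medium then medium library, with a log2 fold change of 0.32 ± 0.06 (edgeR adjusted p = 0.000179). Vcl was at 123, 132, 169 and 148 CPM in TGFβ then medium, against 119, 114, 118 and 120 CPM in medium then medium. The ranges of Vcl did not overlap and its log2 fold change was 0.26 ± 0.08 (edgeR adjusted p = 0.0117), but without the duration term the adjusted p was 0.170, and without the medium then medium library of 12 h it was 0.0693. Actn1 was at 717, 688, 816 and 743 CPM in TGFβ then medium and overlapped medium then medium, with a log2 fold change of 0.14 ± 0.04 (edgeR adjusted p = 0.0203). The call of Actn1 was lost without the duration term (adjusted p = 0.105) and without any 1 of 4 single libraries, the 12 or the 24 h library of either group (adjusted p = 0.0521 to 0.124). In a fit of these 2 groups alone, the calls of Actn1 (adjusted p = 0.203), Vcl (0.109), Tpm2 (0.0637) and Tpm4 (0.0622) were lost.

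Tpm2 was at 2.11, 4.22, 1.20 and 1.21 CPM in TGFβ then medium, against 4.57, 4.74, 4.14 and 4.26 CPM in medium then medium. The 6 h library of TGFβ then medium lay among the medium then medium libraries and the others lay below. The log2 fold change was -1.07 ± 0.26 (edgeR adjusted p = 0.00294). Tpm1 averaged 1617 ± 70.4 CPM in TGFβ then medium and 1480 ± 34.9 CPM in medium then medium, with an edgeR adjusted p of 0.0667. It passed when the 2 h (adjusted p = 0.0391) or the 6 h (adjusted p = 0.0384) library of medium then medium was left out.

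Withdrawn and present TGFβ were then compared directly. For TGFβ then medium against medium then TGFβ none of the 7 genes was called by edgeR or by DESeq2, 0 had an unadjusted p below 0.05, and edgeR called 0% of all tested genes (6.21% had an unadjusted p below 0.05, and DESeq2 called 33 genes). The 95% interval of the log2 difference was -0.06 to 0.19 for Actb, -0.06 to 0.26 for Flna, -0.09 to 0.14 for Tpm4 and -0.04 to 0.28 for Vcl. For Tpm2 it was wider, -0.76 to 0.36. A missed threshold does not show that the levels were equal.

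IFNγ given second moved 2 tropomyosins in opposite directions. In medium then IFNγ against medium then medium 1 of the 7 tested genes rose (Tpm2) and 1 fell (Tpm1), where 43.8% of all tested genes were called (22.7% higher, 21.2% lower). With 7 genes, this count is too small to be read as fewer or more than that share.

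Tpm1 was at 1240, 1324, 1315 and 1184 CPM in medium then IFNγ, against 1469, 1521, 1492 and 1439 CPM in medium then medium. All 4 IFNγ libraries were below all 4 medium libraries. Its log2 fold change was -0.23 ± 0.05 (edgeR adjusted p = 0.000892), and without the 6 h medium then medium library it was -0.20 (edgeR adjusted p = 0.00410).

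Tpm2 was at 7.86, 6.61, 7.60 and 5.89 CPM in medium then IFNγ, against 4.57, 4.74, 4.14 and 4.26 CPM in medium then medium, also without overlap. The log2 fold change was 0.67 ± 0.23 (edgeR adjusted p = 0.0220). That call rested on single libraries: without the 6 h medium then medium library the log2 fold change was 0.56 with an adjusted p of 0.0757, without 1 of the IFNγ libraries of 2, 12 or 24 h the adjusted p was 0.0590 to 0.0768, and without the duration term it was 0.0969.

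The 5 other tested genes were not called in medium then IFNγ. Actb averaged 1269 ± 159 CPM in medium then IFNγ and 1251 ± 60.4 CPM in medium then medium, with a 95% interval of the log2 difference of -0.12 to 0.14. Flna averaged 584 ± 28.8 CPM in medium then IFNγ and 619 ± 43.3 CPM in medium then medium, with an interval of -0.24 to 0.08. Vcl averaged 108 ± 17.1 CPM in medium then IFNγ and 118 ± 2.63 CPM in medium then medium, with a log2 fold change of -0.15 (edgeR adjusted p = 0.131), and it passed at -0.22 (adjusted p = 0.0197) when the 12 h medium then medium library was left out.

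The summed level of 7 fibroblast markers, 6 of them in the table, was 191 to 227 CPM in medium then IFNγ and 148 to 198 CPM in TGFβ then IFNγ, against 571 to 1936 CPM in medium then medium. It came mainly from Col3a1 and Dcn, while Col1a1 reached at most 0.751 CPM and Lum 0.173 CPM. Mitochondrial genes took 0.676% to 0.814% of counts in medium then IFNγ, against 0.841% to 1.24% in medium then medium. The part of these values in the result was not tested.

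After IFNγ was withdrawn none of these shifts was detected. In IFNγ then medium against medium then medium 0 of the 7 tested genes were called by edgeR or by DESeq2, and 0 had an unadjusted p below 0.05 (15.8% of all tested genes did), where edgeR called 0.79% of all tested genes. Tpm1 averaged 1587 ± 168 CPM in IFNγ then medium and 1480 ± 34.9 CPM in medium then medium. Tpm2 was at 4.46, 5.99, 5.15 and 3.02 CPM in IFNγ then medium, on both sides of the 4.14 to 4.74 CPM of medium then medium.

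Withdrawn and present IFNγ differed in Tpm1, Tpm2 and Vcl. In IFNγ then medium against medium then IFNγ 2 of the 7 tested genes were higher and 1 was lower, where 41.6% of all tested genes were called (20.8% higher, 20.8% lower). The fibroblast markers were at 597 to 878 CPM in IFNγ then medium, against 191 to 227 CPM in medium then IFNγ. Mitochondrial genes took 1.03% to 1.31% of counts in IFNγ then medium, against 0.676% to 0.814% in medium then IFNγ. The part of these values in the result was not tested. Tpm1 was at 1467, 1441, 1802 and 1637 CPM in IFNγ then medium, all above the 1184 to 1324 CPM of medium then IFNγ, and its log2 fold change was 0.32 ± 0.05 (edgeR adjusted p = 2.77e-05). Tpm2 was lower by -0.63 ± 0.23 on the log2 scale (edgeR adjusted p = 0.0314) and Vcl higher by 0.20 ± 0.08 (edgeR adjusted p = 0.0390). Neither of these 2 calls held without the duration term (adjusted p = 0.142 for Tpm2 and 0.309 for Vcl), and each was lost without any 1 of 6 of the 8 single libraries (adjusted p = 0.0621 to 0.104 for Tpm2 and 0.0602 to 0.15 for Vcl). For Tpm2 those were the libraries of 2, 12 and 24 h of medium then IFNγ and of 2, 6 and 24 h of IFNγ then medium. For Vcl they were those of 2, 6 and 12 h of both.

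**Figure D3:**
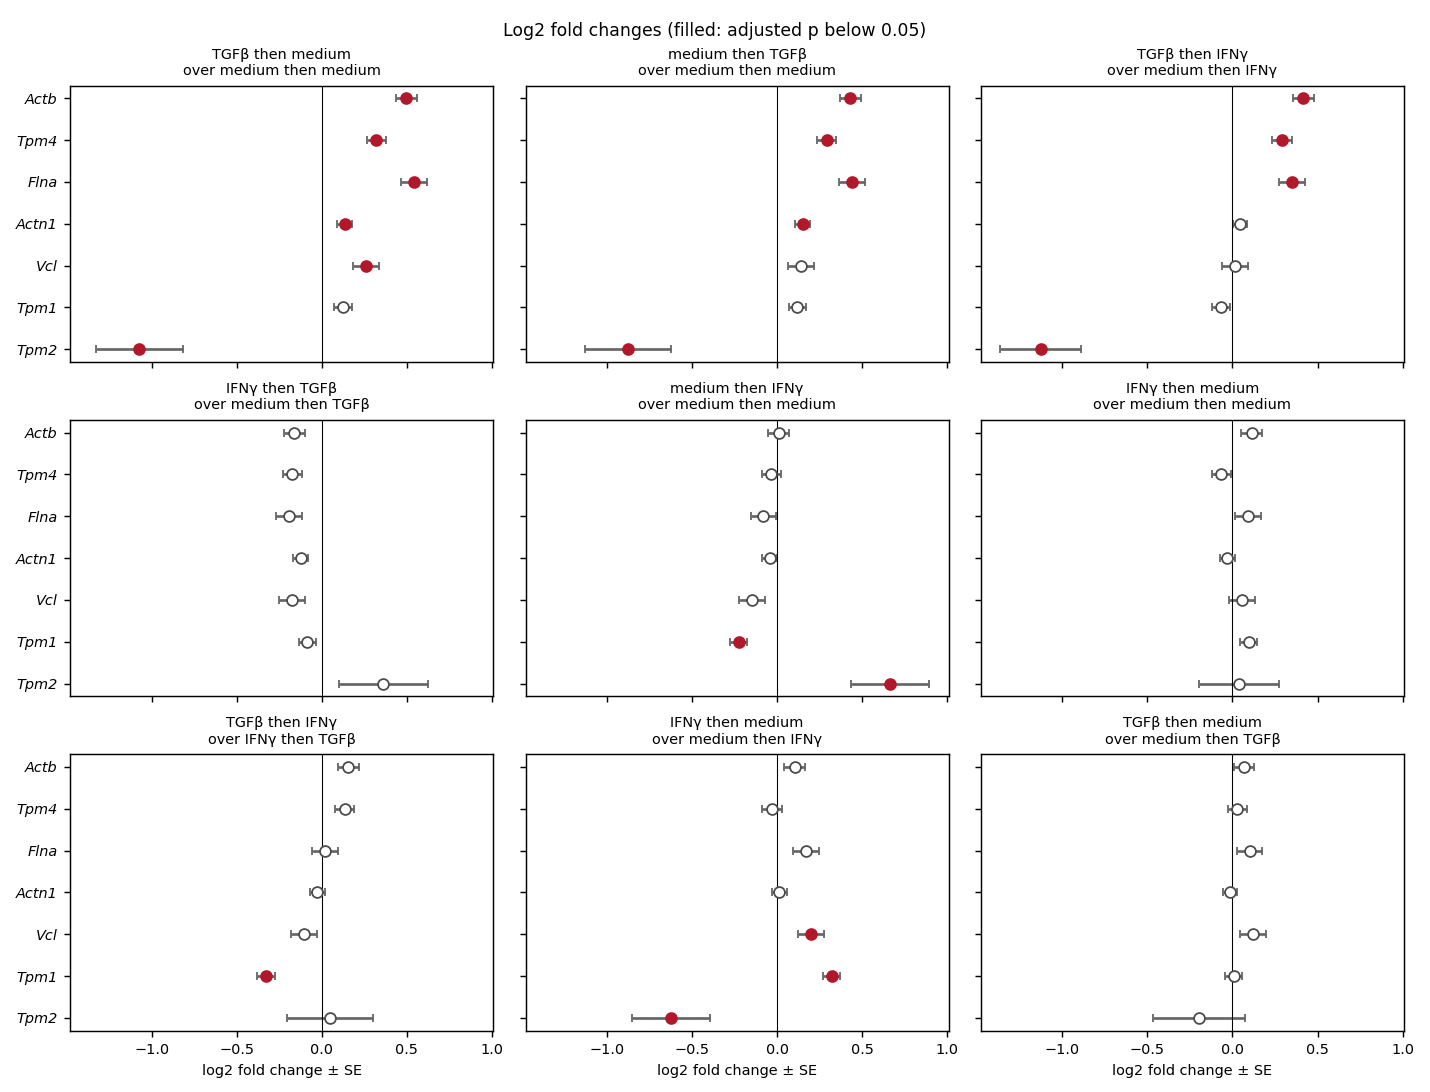
Log2 fold changes ± SE of the 7 tested genes (horizontal axis) in 9 comparisons, the first-named sequence over the second, with filled points for an edgeR adjusted p below 0.05. Actb, Flna, Tpm4 and Tpm2 are filled in the 3 comparisons of TGFβ given against medium (medium then TGFβ, TGFβ then medium and TGFβ then IFNγ), and Tpm1 is filled in the 3 in which 1 sequence ended in IFNγ and the other did not.

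The next question was whether TGFβ given first still counted when IFNγ followed. It did for Actb, Tpm4, Flna and Tpm2. In TGFβ then IFNγ against medium then IFNγ 3 of the 7 tested genes rose and 1 fell, where 15.8% of all tested genes were called (8.64% higher, 7.19% lower). The summed melanocyte markers were at 37.7 to 86.2 CPM in TGFβ then IFNγ, against 107 to 178 CPM in medium then IFNγ. The endothelial markers were at 11.0 to 20.2 CPM in TGFβ then IFNγ, against 5.56 to 9.91 CPM in medium then IFNγ. The part of either list in the result was not tested.

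Actb was at 1518, 1445, 1967 and 1856 CPM in TGFβ then IFNγ, against 1176, 1094, 1397 and 1410 CPM in medium then IFNγ. The ranges did not overlap, and the log2 fold change was 0.42 ± 0.06 (edgeR adjusted p = 4.36e-05). Tpm4 was at 1333, 1339, 1620 and 1592 CPM in TGFβ then IFNγ, against 1129, 1146, 1290 and 1236 CPM in medium then IFNγ, with a log2 fold change of 0.29 ± 0.06 (edgeR adjusted p = 0.000869).

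Flna was at 645, 666, 832 and 859 CPM in TGFβ then IFNγ, against 567, 554, 616 and 601 CPM in medium then IFNγ, with no overlap. Its log2 fold change was 0.35 ± 0.08 (edgeR adjusted p = 0.00245), and 0.36 with an adjusted p of 0.0710 without the duration term. Tpm2 was at 4.50, 4.07, 2.99 and 1.66 CPM in TGFβ then IFNγ, against 7.86, 6.61, 7.60 and 5.89 CPM in medium then IFNγ. All 4 libraries that had seen TGFβ were below the 4 that had not, with a log2 fold change of -1.13 ± 0.24 (edgeR adjusted p = 0.00195).

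Vcl and Actn1, which had passed when TGFβ was followed by medium, did not pass here. Vcl averaged 109 ± 22.1 CPM in TGFβ then IFNγ and 108 ± 17.1 CPM in medium then IFNγ, with a 95% interval of the log2 difference of -0.15 to 0.17. The difference between the 2 TGFβ effects was tested as an interaction. None of the 7 genes was called by edgeR or DESeq2, where edgeR called 0.395% of all tested genes, and 2 had an unadjusted p below 0.05, as had 12.9% of all tested genes: Vcl at -0.25 ± 0.11 (edgeR adjusted p = 0.328) and Tpm1 at -0.19 ± 0.07 (edgeR adjusted p = 0.264).

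No gene passed the test when IFNγ was given before TGFβ. In IFNγ then TGFβ against medium then TGFβ 0 of the 7 tested genes were called by edgeR or by DESeq2, where edgeR called 0.0937% of all tested genes. Of the 7 genes 5 had an unadjusted p below 0.05, a level that 11.6% of all tested genes reached. They were Actb at -0.16, Actn1 at -0.12, Tpm4 at -0.17, Flna at -0.19 and Vcl at -0.17 on the log2 scale, with edgeR adjusted p-values of 0.215 to 0.373. Actn1 was at 689, 668, 713 and 674 CPM in IFNγ then TGFβ, against 717, 731, 813 and 730 CPM in medium then TGFβ, and was lower at each duration without overlap. Actb was at 1513, 1396, 1565 and 1572 CPM in IFNγ then TGFβ, against 1554, 1446, 1868 and 1932 CPM in medium then TGFβ, and the gap was widest at 12 and 24 h.

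The corresponding interaction, the change by IFNγ before TGFβ minus that by IFNγ before medium, called 0 of the 7 genes with edgeR and with DESeq2, where edgeR called 0% of all tested genes. Of the 7 genes 4 had an unadjusted p below 0.05, against 7.22% of all tested genes: Actb at -0.27 ± 0.09, Flna at -0.28 ± 0.11, Tpm1 at -0.18 ± 0.07 and Vcl at -0.23 ± 0.11, each with an edgeR adjusted p of 0.683.

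Tpm1 differed with the order of the cytokines. In TGFβ then IFNγ against IFNγ then TGFβ 1 of the 7 tested genes was called, where 32.5% of all tested genes were called (16.2% lower). The fibroblast markers were at 148 to 198 CPM in TGFβ then IFNγ, against 492 to 661 CPM in IFNγ then TGFβ. The melanocyte markers were at 37.7 to 86.2 CPM in TGFβ then IFNγ, against 89.8 to 155 CPM in IFNγ then TGFβ. Mitochondrial genes took 0.624% to 0.936% of counts in TGFβ then IFNγ, against 0.977% to 1.25% in IFNγ then TGFβ. The part of these values in the result was not tested. Tpm1 was at 1109, 1209, 1258 and 1262 CPM in TGFβ then IFNγ, against 1414, 1416, 1696 and 1552 CPM in IFNγ then TGFβ, with no overlap and a log2 fold change of -0.33 ± 0.05 (edgeR adjusted p = 4.10e-05). This comparison changes the last cytokine together with the order. With medium first, Tpm1 averaged 1265 ± 66.1 CPM when IFNγ came second and 1610 ± 114 CPM when TGFβ did. It was not called for either first cytokine against medium first when the other cytokine followed. Actb was higher at each of the 4 durations in TGFβ then IFNγ, with a log2 fold change of 0.16 ± 0.06 just outside the threshold (edgeR adjusted p = 0.0549) and inside it with DESeq2 (adjusted p = 0.0467).

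In the only library with the mix, Tpm1 was at 1089 CPM (Wilson 95% interval 1075 to 1103), below all 28 other libraries. Vcl was at 89.3 CPM (85.4 to 93.4) and Tpm2 at 4.82 CPM (3.97 to 5.85). Actb was at 1463 CPM (1446 to 1479), above all 4 libraries of medium then medium, and Tpm4 at 1329 CPM (1314 to 1345). Flna was at 629 CPM (618 to 640), inside the range of medium then medium. These intervals cover counting error only, and 1 library allows no test.

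The shares of Tpm1 and Tpm3 among the tropomyosin reads differed in the libraries that ended in IFNγ. Tpm3, a tropomyosin gene outside the 10, was counted with Tpm1, Tpm2 and Tpm4 as reads, without correction for length. Tpm1 gave 31.9 ± 0.767% of the reads of the 4 genes in TGFβ then IFNγ, 36.2 ± 1.48% in medium then IFNγ and 41.8 ± 0.303% in medium then medium (SD, n = 4 each). Tpm3 gave 29.3 ± 1.87% in TGFβ then IFNγ, 29.3 ± 1.19% in medium then IFNγ and 23.5 ± 1.36% in medium then medium. Tpm4 gave 38.7 ± 2.07% in TGFβ then IFNγ, 34.3 ± 1.62% in medium then IFNγ and 34.6 ± 1.12% in medium then medium. In sequences that did not end in IFNγ, Tpm4 gave 37.6 ± 2.21% in medium then TGFβ and 37.8 ± 1.97% in TGFβ then medium. It gave 35.6 ± 0.691% in IFNγ then TGFβ and 32.9 ± 0.590% in IFNγ then medium. Tpm3 itself averaged 1024 ± 22.7 CPM in medium then IFNγ and 833 ± 38.9 CPM in medium then medium, and rose by a log2 fold change of 0.30 (edgeR adjusted p = 3.38e-06). The library with the mix had the lowest share of Tpm1, 30.8%, and a Tpm3 share of 31.6%.

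**Figure D4:**
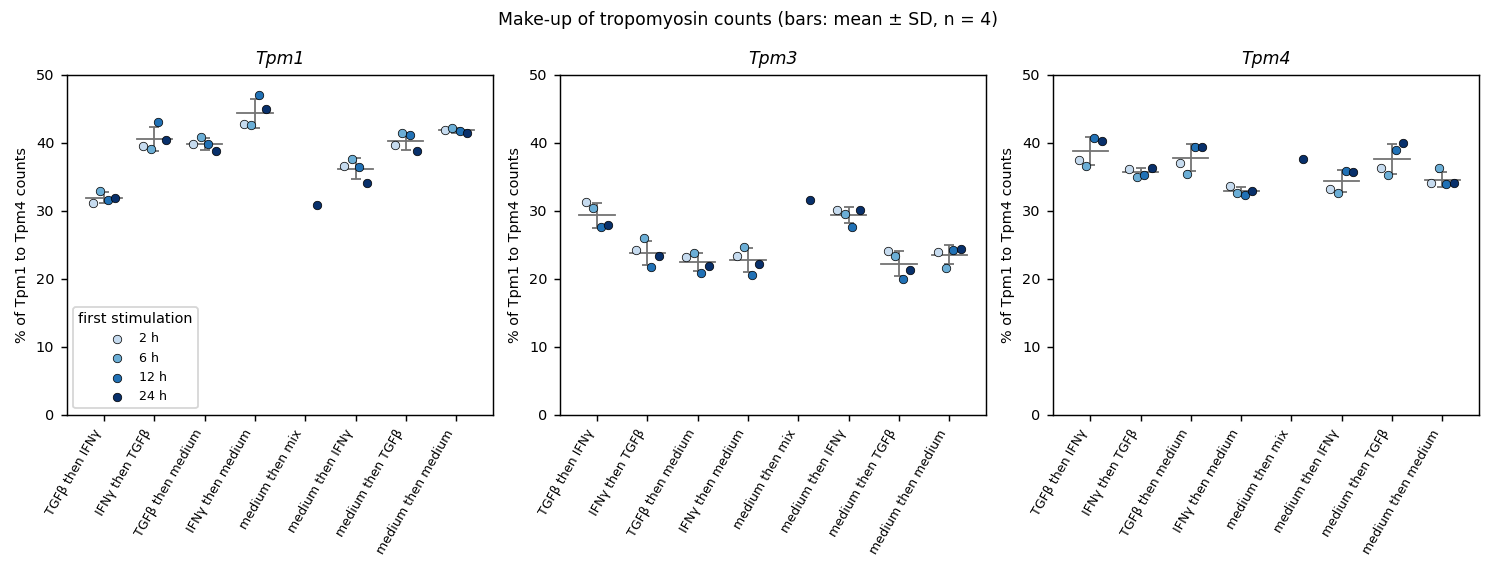
Share of the reads of Tpm1, Tpm2, Tpm3 and Tpm4 that came from Tpm1, Tpm3 and Tpm4 (vertical axes in %, from 0), by sequence of stimuli, with points shaded by the duration of the first stimulation and bars for mean ± SD of 4 libraries (the mix has 1). Tpm1 is near 31.9% in TGFβ then IFNγ and 36.2% in medium then IFNγ, against 41.8% in medium then medium, and Tpm3 is higher in the same 2 sequences.

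All 10 genes together took 0.680 ± 0.0655% of all counts in TGFβ then medium, 0.664 ± 0.0707% in medium then TGFβ, 0.491 ± 0.0221% in medium then IFNγ and 0.552 ± 0.00884% in medium then medium. Ordered by mean level, Actb ran from TGFβ then medium (1785 ± 295 CPM) through medium then TGFβ (1700 ± 237), TGFβ then IFNγ (1697 ± 254), IFNγ then TGFβ (1511 ± 81.4), IFNγ then medium (1357 ± 105) and medium then IFNγ (1269 ± 159) to medium then medium (1251 ± 60.4). Each neighbouring pair in that order overlapped in its 4 libraries.

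Within a sequence, several genes differed between the libraries of short and of long first stimulation, although no slope passed the test given below. The 12 and 24 h libraries of Actb, Tpm4 and Flna were all above the 2 and 6 h libraries in 6 of the 7 sequences. Those of Vcl and Tpm1 were in 5, and those of Actn1 in 2. The sequences that began with medium were among them: Actb, Tpm4, Flna and Vcl showed it in medium then TGFβ and in medium then IFNγ, and Flna also in medium then medium. Tpm2 was lower in the late libraries in 3 sequences. How many of all tested genes split in this way was not counted, and the sequences share durations. These counts of sequences are therefore a description only. Since each duration is 1 library per sequence, the duration and the handling of the libraries of that duration cannot be told apart.

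As a slope against log2 of the duration, Flna rose by 0.18 ± 0.05 per log2 unit in medium then TGFβ, but its edgeR adjusted p over the 13973 genes tested was 0.392. In TGFβ then medium the slope was 0.14 ± 0.05 (edgeR adjusted p = 0.225) and in TGFβ then IFNγ 0.13 ± 0.05 (edgeR adjusted p = 0.195). With edgeR 0 of the 7 genes were called for a slope in any of the 7 sequences, where 0% of all genes were called in medium then TGFβ, 1.44% in TGFβ then medium, 0.208% in TGFβ then IFNγ, 0.00716% in IFNγ then TGFβ and 0% in the other 3. At an unadjusted p below 0.05 there were 3 members in medium then TGFβ (9.9% of all genes), 2 in TGFβ then medium (10.4%), 4 in TGFβ then IFNγ (15%) and 0 in the other 4 sequences. DESeq2 was not run on slopes. Without the 6 h libraries Flna passed in these 3 sequences, with adjusted p-values of 0.0245, 0.0470 and 0.0494. The difference of the slope from that in medium then medium was not called by edgeR for any of the 7 genes in any sequence, and 2 had an unadjusted p below 0.05, both in medium then TGFβ, where 4.17% of all genes did.

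Over the 28 libraries of the 7 sequences, Actb, Tpm4 and Flna varied together, with Pearson r of 0.93 for Actb with Tpm4, 0.91 for Actb with Flna and 0.91 for Tpm4 with Flna. Tpm2 ran against them, at -0.85 with Actb and -0.86 with Flna. Tpm1 was nearly unrelated to Actb (r = 0.27) and Tpm4 (r = 0.28). These libraries share sequences and durations, so r describes this set only. By the same measure on log2 CPM, the genes most like Actb were Med14 (r = 0.96), Hdac2 and Phlpp1. Those most like Flna were Gnl3l (0.96), the nonmuscle myosin heavy chain gene Myh9 (0.95) and Nin (0.95). Igf2r (0.94) was the gene most like Tpm1, and those most like Tpm2 were Xdh (0.92), Mrpl27 and Hal. Pabpc4 (0.94), Phtf2 and Syncrip were most like Tpm4. Vdac1 (0.89), Dip2a and Osbpl3 were most like Actn1, and Kif16b (0.92), Prkar2b and Arhgap29 most like Vcl.

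The rest of the actin system was read from 9 lists of 115 genes, of which 102 were tested. Like the 10 genes, the lists were chosen with earlier results known. In TGFβ then medium against medium then medium 37 of the 102 rose and 9 fell, where 14.5% of all tested genes were higher and 14.5% lower. In medium then TGFβ 30 rose and 8 fell, where 11.7% of all tested genes were higher and 11.6% lower. The median log2 fold change was 0.08 in both, against -0.00 over all tested genes. Actg1, gamma-actin, the only other actin gene tested and close in sequence to Actb, averaged 323 ± 72.7 CPM in TGFβ then medium and 208 ± 17.1 CPM in medium then medium, and rose by 0.59 on the log2 scale (edgeR adjusted p = 0.000122).

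The counts per list in TGFβ then medium stand against the same 14.5% in each direction. Of 5 tested myosin II genes 2 rose in TGFβ then medium, Myh9 by 0.60 (edgeR adjusted p = 3.02e-05) and Myl12a, a nonmuscle regulatory light chain, by 0.19. Of 9 tested regulators of the thin filament 5 rose. Among them was Smtn, smoothelin, by 0.87 (edgeR adjusted p = 9.99e-06). Of 7 tested crosslinkers 3 rose and 1 fell: Pls3, plastin 3, was at 0.28 and Flnc at -0.23. Of 22 tested focal adhesion genes 12 rose and 4 fell, with Tln2, talin 2, at 0.96 and Tns2, tensin 2, at -0.48. Of 16 genes of actin turnover 2 rose and 1 fell, led by the monomer-binding thymosin Tmsb4x at 1.26 (edgeR adjusted p = 4.36e-06).

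Of 17 nucleators 5 rose and 1 fell in TGFβ then medium, with Actr3, a subunit of the Arp2/3 complex, at 0.36. Of 10 tested genes of the SRF list 4 rose, Ccn2 by 2.02 and Ankrd1 by 1.02 among them. In medium then IFNγ 6 of these 10 rose and 2 fell, where 22.7% of all tested genes were higher and 21.2% lower. Ankrd1 was at 1.06 there (edgeR adjusted p = 0.000246), and Ccn1 at -1.01. Ccn2 was low, at 1.01 to 5.40 CPM in TGFβ then medium and 0.347 to 1.13 CPM in medium then medium.

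In medium then IFNγ against medium then medium 31 of the 102 rose and 19 fell, where 22.7% of all tested genes were higher and 21.2% lower, with a median of 0.07 against -0.01 over all tested genes. Zyx, zyxin, a focal adhesion protein, averaged 359 ± 44.8 CPM in medium then IFNγ and 190 ± 25.3 CPM in medium then medium, a log2 fold change of 0.92 (edgeR adjusted p = 2.32e-11). The formin Fmnl2 rose by 0.86, the GTPase gene Rhoc by 0.58 and the early response gene Egr1 by 1.64. Gsn, gelsolin, which severs filaments, fell to 33.5 ± 4.23 CPM in medium then IFNγ, against 72.4 ± 26.2 CPM in medium then medium (log2 fold change -1.11, edgeR adjusted p = 5.65e-06). The severing gene Dstn was at -0.56 and the formin Fmnl3 at -0.55. For comparison, 9 of 10 tubulin genes rose in medium then IFNγ (22.7% of all tested genes were higher), 6 in TGFβ then medium (14.5%) and 5 in medium then TGFβ (11.7%).

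In TGFβ then IFNγ against medium then IFNγ 22 of the 102 rose and 4 fell, where 8.64% of all tested genes were higher and 7.19% lower. Among those that rose were Tmsb4x at 0.67, Actg1 at 0.48 and Myh9 at 0.38. In TGFβ then IFNγ against IFNγ then TGFβ 29 rose and 10 fell, where 16.4% of all tested genes were higher and 16.2% lower. In IFNγ then medium against medium then IFNγ 19 rose and 29 fell, where 20.8% were higher and 20.8% lower. In IFNγ then medium against medium then medium 1 rose and 1 fell, where 0.79% of all tested genes were called. In IFNγ then TGFβ against medium then TGFβ, and in TGFβ then medium against medium then TGFβ, 0 of the 102 were called by edgeR, which called 0.0937% and 0% of all tested genes in them.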

How the data were processed

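Raw gene counts (whole numbers, not normalised) were deposited by the authors as 1 table with a column for each of the 29 libraries. The submitters' processing notes name HISAT, without a version, and GRCm38. Counting tool, annotation release and strand setting remain not given in the sources used here. Overlapping and near-identical genes (Actb with Actg1 among them) are therefore uncertain where reads could be split. Per the labels' protocols the library kit was stranded. Exon lengths came from GENCODE M21, as the union of all exons of a gene. Tpm4 has other coordinates there than in the deposited counts.

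Genes that passed filterByExpr at a minimum count of 10 were tested in R 4.3.3 with edgeR 4.0.16 (quasi-likelihood, TMM factors, Benjamini-Hochberg over 14935 genes), with sequence and duration as factors over all 29 libraries. Slopes on log2 duration used 28 libraries. CPM carry the TMM factors, correlations used log2 CPM with a prior count of 2, and SE is the log2 fold change divided by the root of F. The code was tested on simulated data.

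Replicate numbers are the durations. Deviations of libraries of 1 duration correlated by -0.04 to 0.50 over the comparisons. They were above 0.1 at every duration in some comparisons, but in none of those against medium then medium. Against medium then medium they were 0.08 to 0.18 for medium then TGFβ and 0.01 to 0.16 for TGFβ then medium. Duration stayed in the model as a factor of the design. Alternatives were RLE factors, 2 other filters, DESeq2 1.42.0, no duration term, only the groups compared, and leaving out libraries. The 10 genes and all lists were chosen with earlier results of these data known. All 10 genes were named, with the 2 highest and 2 lowest called genes per list and comparison as the pool for other names, and the 3 most similar genes per member. Some genes and 1 list that this rule names are not reported here. The slope difference between TGFβ then medium and medium then TGFβ, and slopes without the 6 h medium then medium library, were chosen after seeing the data. Totals of 17179530 to 23668015 counts set the precision, and the Wilson intervals of the mix library and the limits on 0 counts cover counting error only, while the 95% intervals of log2 differences come from the edgeR SE.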

Additional observations from a re-analysis of the deposited data

Results flagged for a closer look

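One value among the 49 groups of 4 libraries examined (7 genes in 7 sequences) stood far from the rest of its group. Actn1 was at 813 CPM in the medium then TGFβ library of 12 h, while the other 3 libraries of that sequence were at 717 to 731 CPM. The gap was 0.855 of the group's range, above Dixon's 95% critical value for 4 values. Chance flags about 1 in 20 groups.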

How the results depend on the processing

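Of the values of single genes recomputed under the alternatives, 2060 kept their status, called or not called, 13 gained a call and 62 lost one. Among values called in the main or the alternative fit, 0 changed direction. Changes of sign in values called in neither fit were not counted. Leaving duration out of the model (no replicate block) gave 1 member called instead of 2 in medium then IFNγ against medium then medium, 3 instead of 5 in medium then TGFβ, and 1 instead of 3 in IFNγ then medium against medium then IFNγ. Fitting only the groups compared gave 2 members instead of 5 in medium then TGFβ and 2 instead of 6 in TGFβ then medium. Without a filter on low counts, and with DESeq2, 2 members instead of 1 were called in TGFβ then IFNγ against IFNγ then TGFβ. Without that filter, the calls of Actn1 were lost in medium then TGFβ (edgeR adjusted p = 0.0553) and in TGFβ then medium (0.0999). The call of Vcl was lost in IFNγ then medium against medium then IFNγ (0.0688). Leaving out libraries gave 1 to 3 members in medium then IFNγ, 3 to 5 in medium then TGFβ, 4 to 7 in TGFβ then medium, 1 to 2 for the order of the cytokines, 1 to 3 in IFNγ then medium against medium then IFNγ, and 0 to 1 for the slopes in medium then TGFβ, TGFβ then medium and TGFβ then IFNγ. The causes were not tested.

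Counts over all genes that moved by over 1.5 times, other than by leaving out libraries, were these. Without the duration term 1726 instead of 3476 genes were called in medium then TGFβ, 2615 instead of 4325 in TGFβ then medium, 1232 instead of 2365 in TGFβ then IFNγ against medium then IFNγ, and 6 instead of 118 in IFNγ then medium. The same fit called 1 instead of 14 in IFNγ then TGFβ against medium then TGFβ, and 16 instead of 59 for the interaction with TGFβ first. Fitting only the groups compared called 1047 in medium then TGFβ, 1381 in TGFβ then medium, 0 in IFNγ then medium, 73 in IFNγ then TGFβ against medium then TGFβ, 18 instead of 0 in TGFβ then medium against medium then TGFβ, and 16 for that interaction. With DESeq2 these were 403 in IFNγ then medium, 160 in IFNγ then TGFβ against medium then TGFβ, 33 in TGFβ then medium against medium then TGFβ, and 225 for that interaction. RLE factors called 3 in TGFβ then medium against medium then TGFβ. Without a filter there were 93, 16 and 114 in the comparisons of IFNγ then TGFβ with medium then TGFβ, of TGFβ then medium with medium then TGFβ, and for that interaction. For slopes without a filter there were 21 instead of 0 in medium then TGFβ, 5 instead of 0 in IFNγ then medium, 302 instead of 201 in TGFβ then medium, 266 instead of 29 in TGFβ then IFNγ and 2 instead of 1 in IFNγ then TGFβ. For slope differences from medium then medium there were 189 instead of 1 in TGFβ then medium, 10 instead of 0 in TGFβ then IFNγ, and 1 instead of 0 in both medium then IFNγ and IFNγ then TGFβ. For TGFβ then medium minus medium then TGFβ there were 12 instead of 0. Depth left Acta2, Tagln and Myl9 untested, and Tpm2, at 21 to 177 counts per library, has the widest errors of the tested genes. RLE factors and the filter at 1 CPM in 4 libraries changed no call of a member in these comparisons.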
